A study of Mus musculus with 6 samples.

Results

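Endothelial cells line blood and lymphatic vessels, and a tumour that grows in a mouse takes its vessels from the host. The cells are recognised by receptors for vascular endothelial growth factor (VEGF) and angiopoietin, by junction proteins that hold neighbouring cells together, and by transcription factors of the ETS and SOX families. When a vessel sprouts, cells at its tip switch on a further set that includes the Notch ligand Dll4 and the peptide apelin. The genes described here are 36 genes of this kind, listed by name for their known roles; 35 of them had a value among the 23381 gene symbols of the data, and the expression of Sele, which encodes E-selectin, was not analysed here.

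RNA came from whole mammary tumours of Balb/c mice aged 10 weeks that had been given 500000 4T1 cells, a mouse mammary carcinoma line of the same strain, in the inguinal fat pad. One group received Vismodegib, an inhibitor of the Hedgehog pathway protein Smoothened, at 2 mg per mouse, and the other group the vehicle DMSO, both 3 times a week over 3 weeks. Each group had 3 libraries. The labels do not say whether each library is a separate animal, so that p-values measure the spread between these libraries, which may be technical. The values are RPKM, reads scaled to gene length and to the library's total, so that levels can be compared between genes. The steps in the low values correspond to 41600000 to 58000000 reads per Vismodegib library and 34800000 to 40500000 per DMSO library. In whole-tumour RNA, fewer endothelial cells and less RNA per cell cannot be told apart, and carcinoma cells and leukocytes can also contribute to a transcript.

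The lining genes Pecam1 and Cdh5 were present in all 6 libraries, so the tumours held RNA of genes that mark endothelium. Prox1, the factor that defines lymphatic identity, was listed at 0 in 5 libraries and at 0.0127 RPKM in DMSO replicate 1, where 3 reads correspond to 0.00654 to 0.0109 RPKM over the 6 libraries. Lyve1, a hyaluronan receptor of lymphatic vessels that some macrophages also carry, had 0.321, 0.0401 and 0.0177 RPKM in the 3 Vismodegib libraries (replicates 1 to 3, here and below in that order), and 0, 0.00983 and 0.152 RPKM in the 3 DMSO libraries. Of the 7 lymphatic markers looked at, Reln and Mmrn1 were also at no more than 0.0118 RPKM in any library. Pdpn, which fibroblasts and carcinoma cells can also carry, lay between 4.36 and 11.3 RPKM in Vismodegib and between 3.29 and 7.51 RPKM in DMSO, and the chemokine gene Ccl21a between 0.0276 and 2.04 RPKM in Vismodegib and between 0.0614 and 0.990 RPKM in DMSO.

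The levels of the 35 genes covered a wide range. The most abundant was Cldn5, the main claudin of endothelial tight junctions, with a mean of 59.9 RPKM over the 6 libraries, followed by Plvap, a protein of the diaphragms of fenestrated vessels, at 35.1 RPKM, and Eng, a co-receptor for TGF-beta family ligands, at 19.6 RPKM. There were 7 genes with a mean over 10 RPKM and 25 with a mean of at least 0.5 RPKM, the level required for the test. The other 10 were Kdr, Sox7, Sox17, Vwf, Tek, Erg, Ptprb, Lyve1, Selp and Prox1. Several of these are used as endothelial markers: Vwf, the clotting protein stored in endothelial granules, lay between 0.137 and 0.414 RPKM, and Kdr, the main signalling receptor for VEGF-A, between 0.172 and 0.835 RPKM. For the longest annotated transcript these values correspond to 51.7 to 152 reads for Vwf and 35.4 to 206 reads for Kdr.

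**Figure D1:**
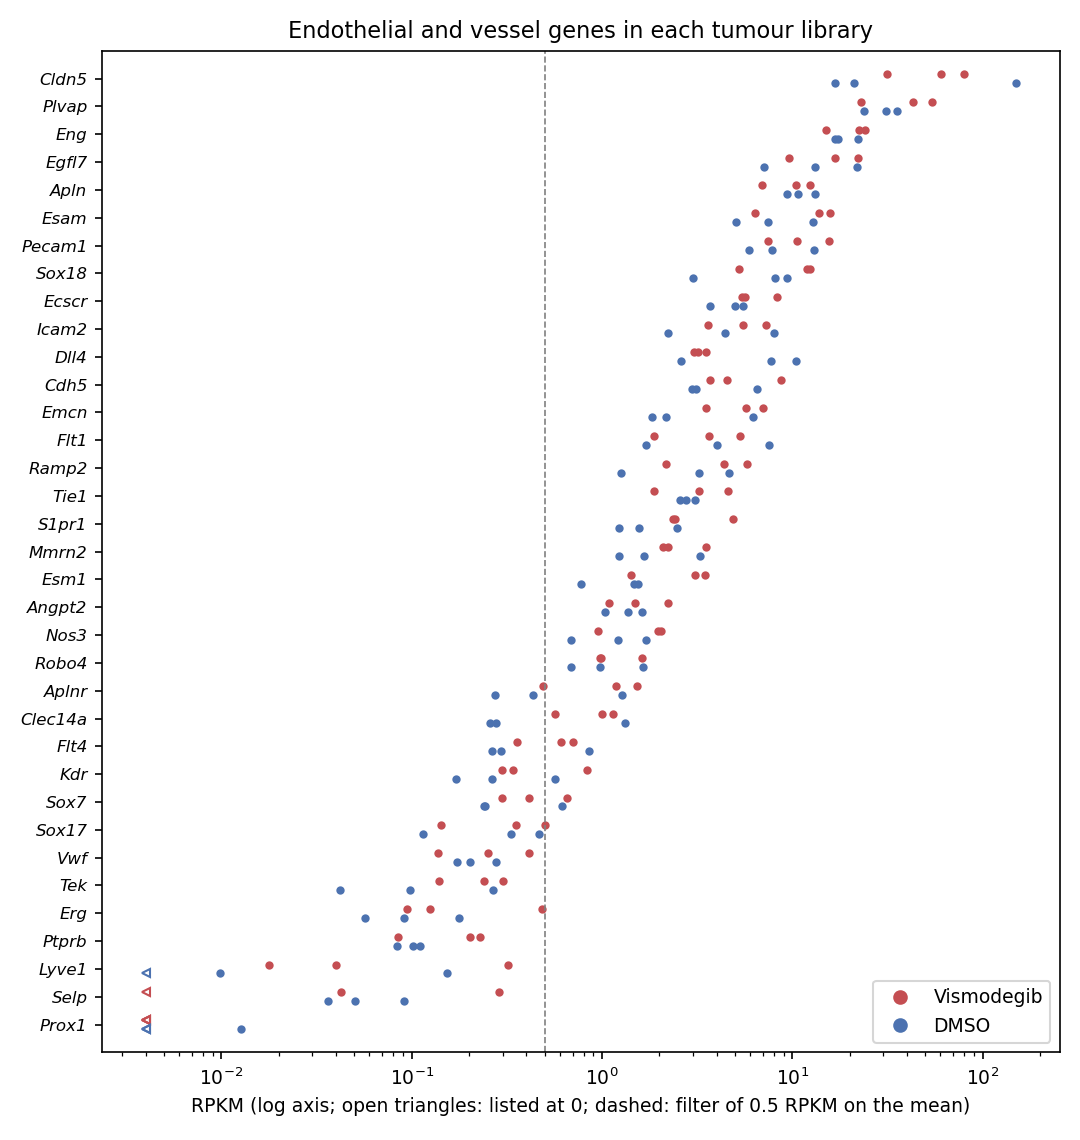
RPKM (log axis) of the 35 genes in each library, sorted by their mean, with Vismodegib libraries in red drawn above DMSO libraries in blue; the dashed line is the filter of 0.5 RPKM on the mean. Cldn5 tops the order with one DMSO library at 150 RPKM, and the 10 genes with a mean below the line include Kdr, Vwf, Tek and Erg.

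The question of the single comparison was what Vismodegib did to the vessel genes of the tumour. No difference passed. Of the 25 genes tested with limma on log2(RPKM + 0.5), 0 had an adjusted p under 0.05, and the smallest adjusted p = 1 (Benjamini-Hochberg over all 11818 genes tested, where 0 genes or 0% passed as well). At an unadjusted p under 0.05 there was 1 of 25 higher in Vismodegib and 0 of 25 lower, against 1.94% and 0.313% of all genes tested. In 0 of the 25 genes did the groups fail to overlap, against 4.29% of all genes with all Vismodegib libraries above all DMSO libraries and 0.745% with all below. The differences of 22 genes lay above 0 and of 3 below, with a median of 0.34 on the log2 scale. Among all genes tested, 58.4% lay above 0 and the median was 0.05. In all 25 genes the difference between the groups was smaller than the larger of the ranges within a group. Overlap of the groups makes this outcome likely, so it adds little to the overlap itself. It was not counted for all genes tested.

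**Figure D2:**
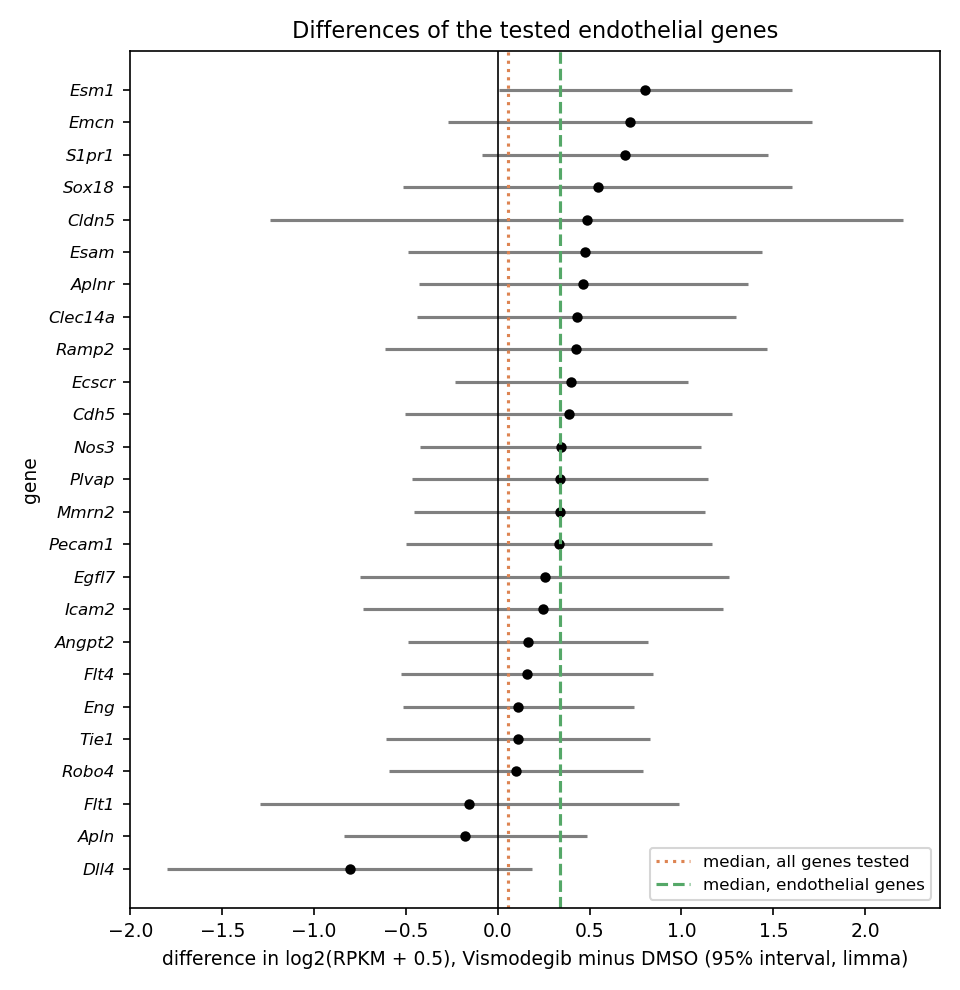
Difference in log2(RPKM + 0.5), Vismodegib minus DMSO, of the 25 tested genes with 95% intervals from limma; the dashed green line is their median of 0.34 and the dotted orange line the median of all genes tested, 0.05. All intervals but that of Esm1 include 0, and Esm1's begins at 0.01.

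Most of these genes were high and low in the same libraries. Pecam1, an adhesion molecule at endothelial contacts that leukocytes and platelets also carry, had 15.5, 7.46 and 10.6 RPKM in the Vismodegib libraries and 12.9, 5.90 and 7.79 RPKM in the DMSO libraries. Cdh5, the cadherin of endothelial junctions, was at 8.68, 3.71 and 4.53 RPKM in the same Vismodegib libraries and at 6.51, 3.11 and 2.96 RPKM in the same DMSO libraries. Both genes were highest in replicate 1 of their group, and the groups overlapped. Tie1, an orphan partner of the angiopoietin receptor, was at 4.57, 1.88 and 3.23 RPKM in Vismodegib and at 3.08, 2.77 and 2.55 RPKM in DMSO, so that the DMSO libraries lay between the lowest and the highest Vismodegib library. The log2 differences were 0.33 (SE 0.366) for Pecam1, 0.39 (SE 0.392) for Cdh5 and 0.11 (SE 0.315) for Tie1 (limma, adjusted p = 1 each). Without Vismodegib replicate 1 the difference of Tie1 was -0.14.

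The order of the libraries can be given as counts. Among the Vismodegib libraries, replicate 1 was the highest in 17 of the 25 genes and replicate 2 the lowest in 17, where 54.8% and 35.6% of all genes tested were so placed. Among the DMSO libraries, replicate 1 was the highest in 19 of 25 and replicate 3 the lowest in 18, against 25.7% and 18.6% of all genes. The mean deviation of the 25 genes from their own means was 0.50, -0.23 and 0.16 on the log2 scale in Vismodegib replicates 1, 2 and 3, and 0.34, -0.28 and -0.49 in DMSO replicates 1, 2 and 3. The fold between the highest and lowest library of a group had a median over the 25 genes of 1.90 in Vismodegib and 2.10 in DMSO.

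**Figure D3:**
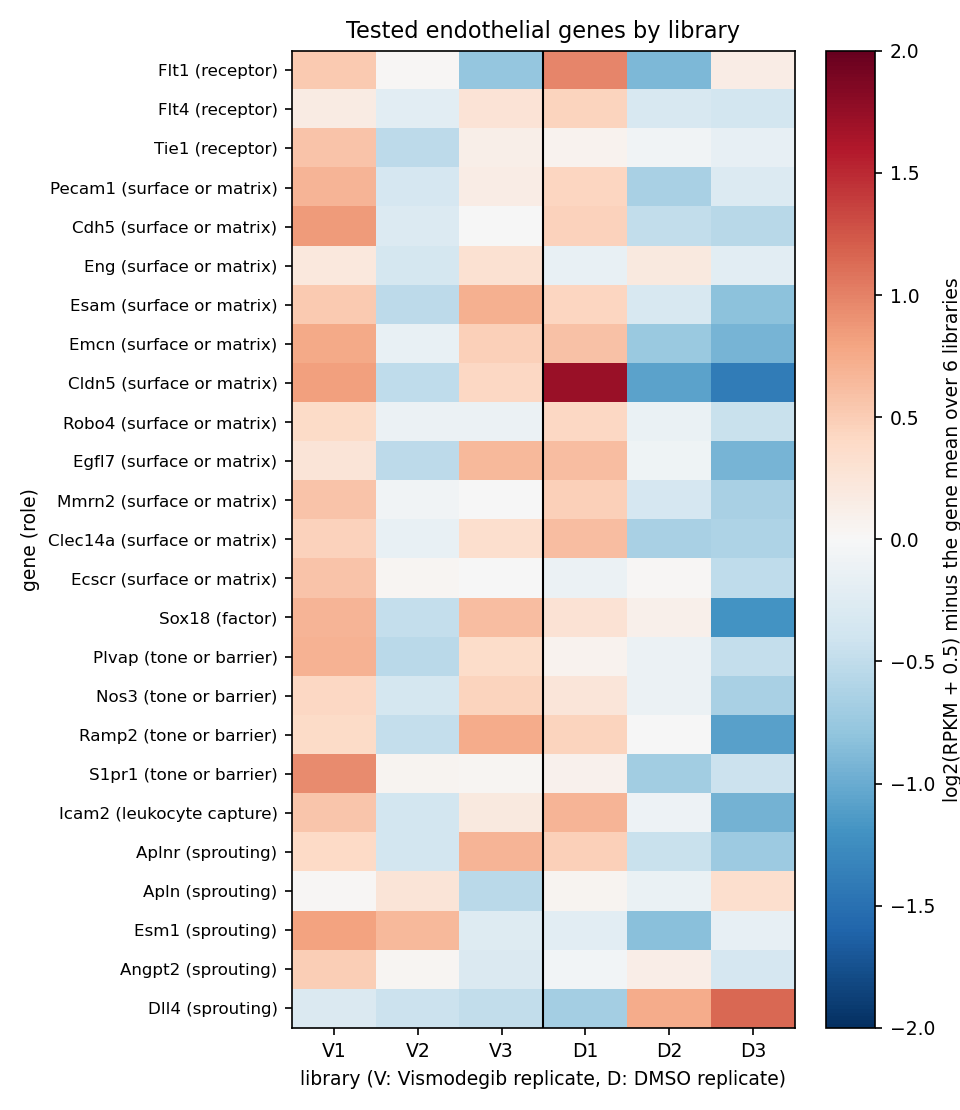
Deviation of log2(RPKM + 0.5) from each gene's mean over the 6 libraries for the 25 tested genes, grouped by role, with the Vismodegib libraries V1 to V3 left of the DMSO libraries D1 to D3. Columns V1 and D1 are mostly red and D3 mostly blue, while Dll4 in the bottom row shows its highest values in D2 and D3.

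DMSO replicate 1 bears most on the comparison. Without it, 6 of the 25 genes were higher and 1 lower at an unadjusted p under 0.05 by limma, where 5.33% and 4.95% of all genes tested were, and 0 passed adjustment. The higher ones were Emcn, Cldn5, Clec14a, Aplnr, Esm1 and S1pr1, and the lower one was Dll4. In 9 genes all Vismodegib libraries then lay above both remaining DMSO libraries and in 1 gene below, against 12.3% and 14.7% of all genes. The median difference of the 25 genes was 0.14, 0.58 and 0.24 when Vismodegib replicates 1, 2 and 3 were left out in turn. It was 0.63, 0.26 and 0.08 when DMSO replicates 1, 2 and 3 were. Without DMSO replicate 3 the median of all genes tested was 0.08 as well. Without Vismodegib replicate 2, the groups of 6 genes (Tie1, Eng, Esam, Plvap, Sox18 and Nos3) did not overlap, all higher in Vismodegib, against 10.3% of all genes higher and 1.26% lower.

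Of the receptor genes, Flt1, Flt4 and Tie1 were tested and had log2 differences between -0.15 and 0.16, while Kdr, Tek and Ptprb were too low for the test. Flt1, the VEGF receptor that also exists as a soluble decoy, was at 5.34, 3.64 and 1.89 RPKM in Vismodegib and at 7.55, 1.69 and 4.01 RPKM in DMSO, with overlapping groups. Flt4, the receptor for VEGF-C, lay between 0.358 and 0.702 RPKM in Vismodegib and between 0.264 and 0.853 RPKM in DMSO. Kdr was at 0.835, 0.298 and 0.342 RPKM in Vismodegib and at 0.565, 0.172 and 0.266 RPKM in DMSO. Tek, the angiopoietin receptor, was at 0.301, 0.238 and 0.139 RPKM in Vismodegib and at 0.266, 0.0975 and 0.0420 RPKM in DMSO. The highest Kdr and Tek values of each group were again in replicate 1. Ptprb, a phosphatase that acts on Tek, averaged 0.172 ± 0.0771 RPKM in Vismodegib and 0.0987 ± 0.0134 RPKM in DMSO (SD, n = 3 each). Of the 10 genes below the filter, 9 were above 0 in at least 3 libraries. Two-sided exact permutation tests of these 9 gave p between 0.3 and 0.9, and a design of 3 against 3 cannot give a p below 0.1.

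The 11 junction, surface and matrix genes all had differences above 0, from 0.10 for Robo4 to 0.72 for Emcn. Emcn encodes endomucin, a sialomucin of capillary and venous endothelium. It was at 6.999, 3.52 and 5.70 RPKM in Vismodegib, against 6.21, 2.16 and 1.83 RPKM in DMSO. The DMSO replicate 1 value lay among the Vismodegib values and the other DMSO values lay below them, with an unadjusted p of 0.133 by limma. Esam, an adhesion molecule of endothelial tight junctions, was at 13.7, 6.38 and 15.8 RPKM in Vismodegib and at 12.9, 7.42 and 5.09 RPKM in DMSO. Clec14a, a C-type lectin of tumour vessels, was at 1.14, 0.568 and 0.9997 RPKM in Vismodegib and at 1.33, 0.257 and 0.276 RPKM in DMSO. Both genes had their lowest Vismodegib value in replicate 2, and the groups overlapped. Ecscr, which regulates endothelial migration, was at 8.28, 5.61 and 5.42 RPKM in Vismodegib and at 4.98, 5.54 and 3.68 RPKM in DMSO. DMSO replicate 2 lay between the lower Vismodegib libraries.

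Cldn5 was the most variable of these genes. It was at 79.5, 31.3 and 60.3 RPKM in Vismodegib and at 150, 21.2 and 16.8 RPKM in DMSO, a range of 8.72-fold among the DMSO libraries on the log2(RPKM + 0.5) scale. Its group means were 57.0 ± 24.3 RPKM in Vismodegib and 62.7 ± 75.8 RPKM in DMSO (SD, n = 3 each), while the difference on the log2 scale was 0.48 (95% interval from -1.24 to 2.21). The means and the log2 difference therefore had opposite signs. The remaining members of this role, Eng, Robo4, Egfl7 and Mmrn2, had log2 differences of 0.11, 0.10, 0.26 and 0.34. Egfl7, a matrix protein secreted by endothelium, shares exon sequence with the microRNA gene Mir126a and overlaps Agpat2 on the other strand. Eng overlaps Fpgs on the other strand, and the use of strand is not given in the sources used here.

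Of the transcription factors, Sox18 reached the filter of 0.5 RPKM. It was at 12.4, 5.27 and 11.9 RPKM in Vismodegib, against 9.36, 8.11 and 3.01 RPKM in DMSO. The lowest value was in DMSO replicate 3 and the groups overlapped, with a log2 difference of 0.54 (95% interval from -0.51 to 1.60). Erg, the ETS factor that maintains endothelial identity, was at 0.485, 0.0945 and 0.124 RPKM in Vismodegib and at 0.177, 0.0911 and 0.0571 RPKM in DMSO, which for its longest transcript is 7.51 to 65.6 reads. Sox7 and Sox17, relatives of Sox18, lay between 0.142 and 0.655 RPKM in Vismodegib and between 0.114 and 0.615 RPKM in DMSO.

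The tested genes of vessel tone, barrier and leukocyte traffic had log2 differences from 0.25 for Icam2 to 0.69 for S1pr1. S1pr1, the receptor through which sphingosine 1-phosphate stabilises vessels and which lymphocytes also carry, was at 4.88, 2.41 and 2.37 RPKM in Vismodegib and at 2.46, 1.23 and 1.57 RPKM in DMSO. DMSO replicate 1 exceeded the lower Vismodegib libraries by a small margin, and the unadjusted p of the difference between the groups was 0.0741 by limma. Nos3, the endothelial nitric oxide synthase, was at 1.97, 0.952 and 2.04 RPKM in Vismodegib and at 1.69, 1.21 and 0.685 RPKM in DMSO. Exons of Nos3 overlap Atg9b on the other strand. Plvap averaged 40.1 ± 15.99 RPKM in Vismodegib and 30.1 ± 5.77 RPKM in DMSO (SD, n = 3 each). Ramp2, the partner of the adrenomedullin receptor, averaged 4.11 ± 1.82 and 3.04 ± 1.69 RPKM in Vismodegib and DMSO (SD, n = 3 each). Its exons overlap Vps25 on the same strand. Icam2, a ligand for leukocyte integrins, lay between 3.59 and 7.25 RPKM in Vismodegib and between 2.23 and 7.97 RPKM in DMSO. Selp, the selectin of activated endothelium and platelets, was at 0.288, 0.0424 and 0 RPKM in Vismodegib and at 0.0363, 0.0910 and 0.0504 RPKM in DMSO.

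The sprouting genes followed the order of libraries that most members shared to differing degrees. Among them, Aplnr alone was lowest in replicate 2 of Vismodegib and highest in replicate 1 of DMSO. Angpt2 was highest of all in Vismodegib replicate 1 and lowest in DMSO replicate 3, as Cdh5 was. Eng, which is not in this role, also departed from the order, with its highest DMSO value in replicate 2. Esm1, a proteoglycan secreted by tip cells, had the smallest p of the 25 genes. Its level was 3.49, 3.07 and 1.41 RPKM in Vismodegib and 1.46, 0.780 and 1.54 RPKM in DMSO. Vismodegib replicates 1 and 2 lay above all DMSO libraries and replicate 3 within them. Its log2 difference was 0.80 (95% interval from 0.01 to 1.60), with an unadjusted p of 0.0485 and an adjusted p = 1 by limma. The unadjusted p was no longer under 0.05 with median-ratio scaling, with a filter at 1 RPKM, with no filter, with the replicate block, or without any 1 of Vismodegib replicates 1 and 2 and DMSO replicates 2 and 3. Esm1 lies on chromosome 13 from 113209659 to 113218098 on the plus strand (GRCm38).

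Dll4, the Notch ligand that tip cells present to their neighbours, had the lowest difference. It was at 3.53, 3.19 and 3.03 RPKM in Vismodegib, against 2.61, 7.76 and 10.4 RPKM in DMSO. The Vismodegib values were close together, DMSO replicate 1 lay below them and DMSO replicates 2 and 3 above, with a log2 difference of -0.81 (95% interval from -1.80 to 0.19; unadjusted p of 0.0996). Without DMSO replicate 1 the difference was -1.34 with an adjusted p = 0.138. Dll4 lies on chromosome 2 from 119325784 to 119335962 on the plus strand, and the gene Gm14207 overlaps its exons on the other strand. Apln, the ligand apelin, was at 10.5, 12.4 and 6.90 RPKM in Vismodegib and at 10.8, 9.36 and 13.2 RPKM in DMSO, and its receptor gene Aplnr was at 1.18, 0.487 and 1.53 RPKM in Vismodegib and at 1.27, 0.434 and 0.274 RPKM in DMSO. The ligand was lowest in Vismodegib replicate 3, the library in which the receptor was highest. Angpt2, the ligand that loosens contacts between endothelium and pericytes, averaged 1.60 ± 0.577 RPKM in Vismodegib and 1.34 ± 0.294 RPKM in DMSO (SD, n = 3 each).

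To set these genes against the general level of endothelial genes in each library, the mean log2 level of 8 widely used endothelial genes (Pecam1, Cdh5, Tie1, Esam, Egfl7, Robo4, Clec14a and Mmrn2) was subtracted in each library. This core level was 0.54, -0.31 and 0.23 above or below its own mean in Vismodegib replicates 1, 2 and 3, and 0.44, -0.34 and -0.56 in DMSO replicates 1, 2 and 3. Of the 17 tested members outside the core, 11 varied less over the 6 libraries after the subtraction, against 14.4% of the 11793 tested genes that are no members. Among these 11, the SD of Nos3 was 0.182 relative to the core and 0.444 without the subtraction, and that of Aplnr was 0.228 and 0.582. The 6 that varied more were Dll4, Apln, Esm1, Angpt2, Eng and Ecscr, among them 4 of the 5 sprouting genes. For Dll4 the SD was 1.14 relative to the core and 0.75 without the subtraction, and for Apln it was 0.659 and 0.316. Esm1 and Ecscr hardly changed, with 0.641 and 0.616 for Esm1 and 0.353 and 0.343 for Ecscr.

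**Figure D4:**
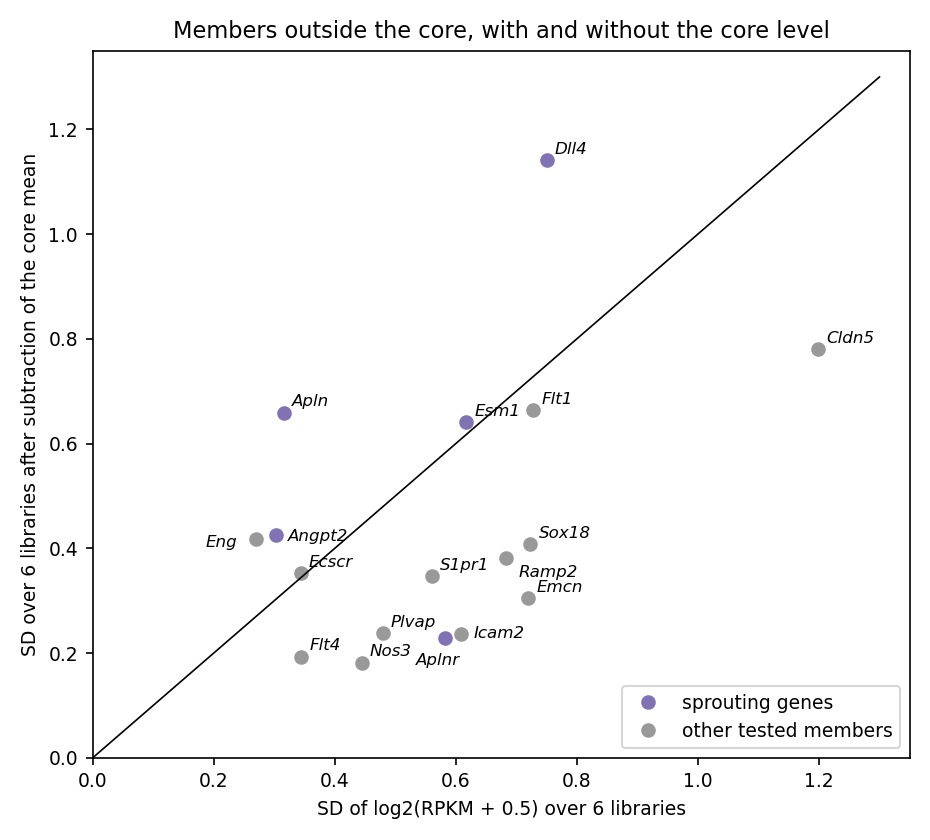
SD of log2(RPKM + 0.5) over the 6 libraries for the 17 tested genes outside the core, without (x axis) and with (y axis) subtraction of the core level of each library; the line marks equal SDs and sprouting genes are purple. Dll4, Apln, Angpt2 and Esm1 lie above the line and most other genes below it.

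Relative to the core, Dll4 stood at -0.65, 0.07 and -0.53 on the log2 scale in Vismodegib and at -0.93, 1.26 and 1.88 in DMSO. The groups overlapped through DMSO replicate 1, and the difference of -1.11 had a two-sided exact permutation p = 0.4 and an unadjusted p of 0.0514 in a limma fit of all genes on this scale. Emcn relative to the core was at 0.25, 0.20 and 0.28 in Vismodegib and at 0.18, -0.37 and -0.35 in DMSO. It was the one gene of the 25 whose groups did not overlap on this scale, by the narrow gap between Vismodegib replicate 2 and DMSO replicate 1. Among all genes tested, 0.677% were without overlap and higher on this scale, and 0.652% lower. Its difference was 0.42, with an exact permutation p = 0.1, the smallest possible, and an unadjusted p of 0.463 in the limma fit. In that fit the spread of the core level enters every gene, and the shared variance estimate gives nearly the same SE to all.

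The bases before the start of transcription are shown for 3 core genes, Egfl7, Robo4 and Tie1, and for 3 sprouting genes, Dll4, Apln and Esm1. These 3 sprouting genes varied more relative to the core, Esm1 by a small margin. RefSeq windows on GRCm38.p6 were found for 18 of the 36 genes, with 23 windows in all since some have several starts. Each stretch is the 150 bases before the start, 5′ to 3′ on the gene's own strand. Capitals mark the ETS-type letters CAGGAAG or their reverse complement. The stretches are chr2:26580933-26581082 on the plus strand for Egfl7 (the first of 3 starts), chr9:37401822-37401971 on the plus strand for Robo4, chr4:118489850-118489999 on the minus strand for Tie1, chr2:119325634-119325783 on the plus strand for Dll4, chrX:48034854-48035003 on the minus strand for Apln and chr13:113209509-113209658 on the plus strand for Esm1.
Egfl7: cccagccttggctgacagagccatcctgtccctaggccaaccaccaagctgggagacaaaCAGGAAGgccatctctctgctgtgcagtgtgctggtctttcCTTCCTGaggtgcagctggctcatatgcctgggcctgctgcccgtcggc
Robo4: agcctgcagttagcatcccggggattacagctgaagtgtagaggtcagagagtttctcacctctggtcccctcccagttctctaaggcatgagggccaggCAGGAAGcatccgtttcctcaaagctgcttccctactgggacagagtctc
Tie1: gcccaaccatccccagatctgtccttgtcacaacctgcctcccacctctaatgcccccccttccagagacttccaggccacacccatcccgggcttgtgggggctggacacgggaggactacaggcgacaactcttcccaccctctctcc
Dll4: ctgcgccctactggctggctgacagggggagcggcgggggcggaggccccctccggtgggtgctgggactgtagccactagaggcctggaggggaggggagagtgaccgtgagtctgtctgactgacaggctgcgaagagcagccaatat
Apln: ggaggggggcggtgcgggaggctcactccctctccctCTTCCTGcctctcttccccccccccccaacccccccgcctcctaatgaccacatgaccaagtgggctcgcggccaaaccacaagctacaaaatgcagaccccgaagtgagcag
Esm1: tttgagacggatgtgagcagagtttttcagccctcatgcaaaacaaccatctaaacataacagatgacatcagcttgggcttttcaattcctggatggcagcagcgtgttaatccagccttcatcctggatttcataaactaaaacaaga

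Over the 250 bases before each start, on both strands, CAGGAAG was found in 7 of the 23 windows, which belong to 6 genes (Apln, Egfl7, Emcn, Erg, Robo4 and Sele), and in 10.8% of all 32851 RefSeq windows. The related letters CCGGAAG were found in 0 of 23 windows, against 6.91% of all windows, and cannot share bases with a CAGGAAG match. The letters ACGTG, the core of the element bound by hypoxia-inducible factors, were found in 1 of 23 windows, that of Clec14a, against 16.6% of all windows. Among the 6 stretches, CAGGAAG stood in those of Egfl7, Robo4 and Apln.

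Other signals of the vessel system were counted from lists of known genes. Of 10 tested growth factors and co-receptors, 4 had differences above 0 and 6 below, with a median of -0.12, and 0 had an unadjusted p under 0.05. Among all genes tested, 58.4% lay above 0. By limma, 1.94% were higher and 0.313% lower at an unadjusted p under 0.05. Vegfa, the main growth factor for endothelium, was at 9.86, 6.29 and 5.11 RPKM in Vismodegib and at 4.67, 5.56 and 7.33 RPKM in DMSO, with overlapping groups. Vegfc, the ligand of Flt4, was at 2.81, 2.79 and 2.53 RPKM in Vismodegib, against 3.35, 5.57 and 3.70 RPKM in DMSO. All 3 Vismodegib libraries lay below all DMSO libraries, and the log2 difference was -0.52 with an unadjusted p of 0.0815 (limma, adjusted p = 1). Of the 10 genes, 1 was without overlap and lower and 0 higher, against 0.745% and 4.29% of all genes tested. Vegfb, a ligand of Flt1, averaged 11.4 ± 2.63 RPKM in Vismodegib and 21.3 ± 14.3 RPKM in DMSO (SD, n = 3 each).

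Of 11 tested Notch and arteriovenous genes, 10 had differences above 0, with a median of 0.26, and 0 had an unadjusted p under 0.05. Jag1, the Notch ligand that competes with Dll4 on endothelium, was at 5.68, 8.14 and 4.81 RPKM in Vismodegib and at 3.62, 3.24 and 7.195 RPKM in DMSO. Of 12 tested regulators and flow genes, 9 lay above 0, with a median of 0.27 and again 0 at an unadjusted p under 0.05. Sphk1, which makes the ligand of S1pr1, was at 9.29, 8.51 and 9.81 RPKM in Vismodegib and at 6.74, 6.44 and 7.38 RPKM in DMSO. Its groups did not overlap, and its log2 difference was 0.40. It was the 1 gene of these 12 without overlap, where 4.29% of all genes tested were without overlap and higher. Cd34, a surface mucin of capillaries, was at 6.89, 2.97 and 5.92 RPKM in Vismodegib and at 6.42, 2.07 and 1.80 RPKM in DMSO, highest in replicate 1 of each group as Pecam1 was. Of 7 tested inhibitors of angiogenesis, 6 lay above 0, with a median of 0.61. The thrombospondin genes Thbs2 and Thbs1 had unadjusted p of 0.0323 and 0.0484 by limma, and neither passed adjustment. They were the 2 of these 7 genes whose groups did not overlap, both higher in Vismodegib. At an unadjusted p under 0.05, 1.94% of all genes tested were higher, and 58.4% lay above 0. With median-ratio scaling the limma p of Thbs2 and Thbs1 were 0.0791 and 0.0840, and with quantile scaling 0.0633 and 0.0841. Thbs2 averaged 18.6 ± 6.95 RPKM in Vismodegib and 10.1 ± 2.22 RPKM in DMSO (SD, n = 3 each).

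Markers of the cells around vessels were measured in the same libraries. All 12 tested pericyte and smooth muscle genes had differences above 0, against 58.4% of all genes tested, with a median of 0.49. At an unadjusted p under 0.05 by limma, 2 were higher, Notch3 and Des, against 1.94% of all genes. Des was at 16.1, 15.6 and 23.5 RPKM in Vismodegib and at 5.10, 19.1 and 2.29 RPKM in DMSO. The skeletal muscle list summed to 21.9, 185 and 9.30 RPKM in the same DMSO libraries. The part of muscle in Des was not tested. Notch3, the Notch receptor of mural cells, was at 0.971, 1.33 and 1.57 RPKM in Vismodegib, against 0.805, 0.387 and 0.550 RPKM in DMSO, without overlap. Of the 12 genes, 2 were without overlap and higher, Notch3 and Cspg4, and 0 lower. Among all genes tested these shares were 4.29% and 0.745%. The summed level of the mural list was 194 to 446 RPKM in Vismodegib and 135 to 265 RPKM in DMSO, and its mean deviation was highest in Vismodegib replicate 3 at 0.63 and lowest in DMSO replicate 3 at -0.69. Tagln and Acta2 made up most of the sum in every library, with 267 and 79.5 RPKM in Vismodegib replicate 3. The part of other cells in these genes was not tested. The 35 endothelial genes summed to 151 to 299 RPKM in Vismodegib and 131 to 332 RPKM in DMSO. The highest sum was that of DMSO replicate 1, to which Cldn5 alone gave 150 RPKM.

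**Figure D5:**
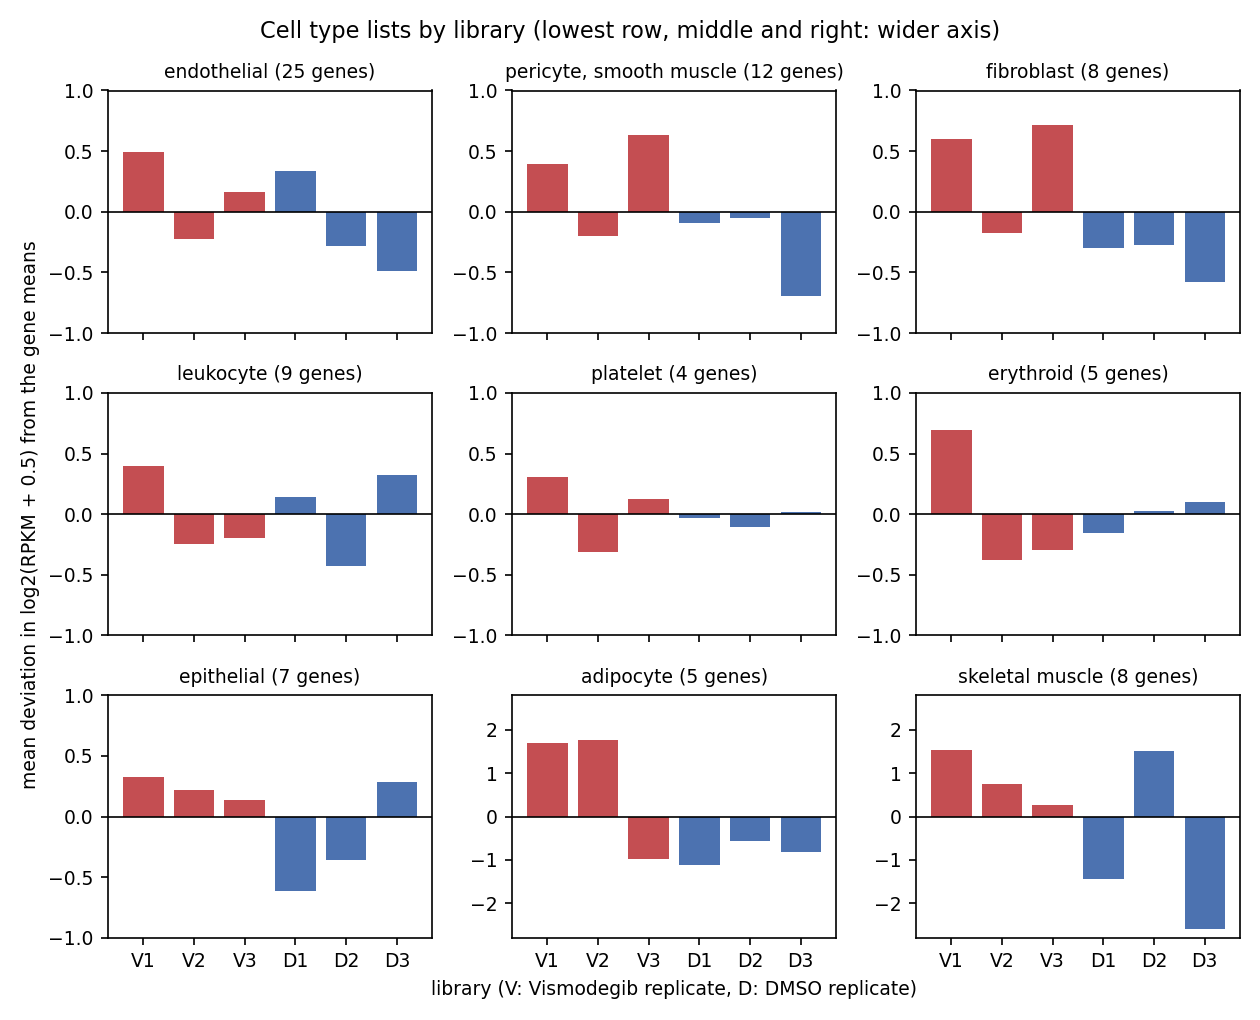
Mean deviation in log2(RPKM + 0.5) from the gene means for the tested genes of 9 cell type lists, per library, with Vismodegib (V1 to V3, red) left of DMSO (D1 to D3, blue); the adipocyte and skeletal muscle axes are wider. The endothelial bars are positive in V1, V3 and D1, and no other list shows that set of signs. The pericyte and smooth muscle list and the fibroblast list differ from it only in D1, at -0.09 and -0.30.

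Lists for the tissue around the carcinoma, and for the carcinoma epithelium itself, also differed between libraries. Medians over the tested genes were 0.79 for 8 fibroblast genes, 1.42 for 5 adipocyte genes and 1.65 for 8 skeletal muscle genes. The 7 epithelial genes of the carcinoma had a median of 0.70, with 5 above 0 and 2, Krt8 and Krt18, below. The summed levels of these lists were 80.9 to 192, 3.66 to 77.6, 83.2 to 182 and 2479 to 2595 RPKM in Vismodegib, against 63.9 to 81.0, 2.02 to 10.6, 9.30 to 185 and 1593 to 2751 RPKM in DMSO. For cells that share markers with endothelium, the medians were -0.02 for 9 leukocyte genes and 0.20 for 4 platelet genes, and 5 erythroid genes gave 0.05. Leukocyte genes summed to 157 to 264 RPKM in Vismodegib and 162 to 308 RPKM in DMSO, platelet genes to 18.6 to 41.8 and 21.6 to 34.2 RPKM, and erythroid genes to 419 to 919 and 562 to 640 RPKM. The platelet chemokine gene Ppbp was at 0.0913 RPKM or below in every library, while Pf4 lay between 7.15 and 32.3 RPKM. Of the 9 platelet genes with a value, 4 reached the filter of 0.5 RPKM. The part of these cells in the endothelial differences was not tested.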

How the data were processed

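RNA-seq of 4T1 tumour tissue, 3 Vismodegib and 3 DMSO libraries, was analysed; samples were grouped by their titles. The authors deposited RPKM values per gene symbol; the submitters' processing notes name the mm10 build, Partek, SAMtools, HISAT2, STAR, cutadapt and bcl2fastq 2.17, in roles not given in the sources used here. Annotation, strand and filters are likewise not given. RPKM depends on what the other genes contribute to the library total.

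Members and lists were chosen with earlier results of these data known. The test was limma 3.58.1 (R 4.3.3) of log2(RPKM + 0.5), for genes averaging 0.5 RPKM or more (trended eBayes, group as the only term, two-sided, Benjamini-Hochberg over all 11818 genes); this scale understates the change of low genes. The steps were tested on simulated data. Depth was taken from the value steps of 6992 genes with 1 GENCODE M21 transcript, which made 84.3% to 85.6% of low values whole reads within 0.02 reads, up to 20 reads; a total too high by a whole-number factor would not show, and limits from 3 reads cover counting error only. Named with values in every library were members with an unadjusted p under 0.05, the 10 smallest p, Pecam1, Cdh5, Kdr, Tie1 and Erg, and up to 4 genes of a comparison list; others such as Cldn5, Flt1, Tek, Apln, Selp and Lyve1 were chosen after their values were seen. Alternatives covered pseudocount, filter, scaling, eBayes, library weights, the replicate block and each library left out.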

Additional observations from a re-analysis of the deposited data

How the results depend on the processing

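The counts of calls depended on single libraries and on weighting. Directions were followed singly for the 10 members with the smallest p and for Pecam1, Cdh5 and Tie1, and these mostly held. Leaving out 1 library at a time gave 0 to 19 genes past an adjusted p of 0.05 and 133 to 1215 past an unadjusted p of 0.05, 0 to 7 members past an unadjusted p of 0.05, and 0 to 10 members without overlap, each maximum being the fit without DMSO replicate 1. Library weights, which limma set at 7.28 for DMSO replicate 3 and at 0.319 and 0.316 for DMSO replicates 1 and 2, gave 420 genes past adjustment, 2732 past an unadjusted p of 0.05, and 17 members past an unadjusted p of 0.05, of which 1, Dll4, passed adjustment (adjusted p = 0.0225; from 0.138 to 1 under the other alternatives); the weight estimate stopped before it converged. No filter gave 638 genes and 0 members past an unadjusted p of 0.05, and 0 members passed it with the filter at 1 RPKM or with median-ratio scaling. With the replicate block, 1 gene of all tested passed adjustment and 0 members passed an unadjusted p of 0.05; same-numbered libraries deviated together with correlations of 0.003, 0.04 and -0.30, so the numbers are not taken to pair the samples. Among the members and comparison genes followed singly, directions that turned were those of Tie1 (-0.14 to 0.40 with 1 library left out), Vegfa (-0.02 to 0.42, and -0.01 with library weights) and Nrp2 (-0.50 to 0.06). Other members turned as well. Flt1 went from -0.15 to 0.30 without DMSO replicate 1. Without Vismodegib replicate 1, 19 of 25 members lay above 0, against 22 with all libraries. The median of the members stayed above 0 under every alternative run, from 0.08 without DMSO replicate 3 to 0.65 with library weights. Without DMSO replicate 3, 17 of 25 members lay above 0, and the median of all genes tested was 0.08 as well. With library weights the median of all genes tested was 0.01. The cause of these changes was not tested. Depth limits the precision of some low members, which correspond to 0 to 41.3 reads per library for Selp, 0 to 38.6 for Lyve1 and 7.91 to 58.2 for Tek.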
